A study of Sus scrofa with 26 samples.

Results

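The subcutaneous adipose tissue (SCAT) of F1 pigs, the cross of Large White (LW) and Creole, was compared with that of LW pigs after both had been kept in the heat. The members were the 10 arrays whose titles give SCAT, the breed F1 or LW, and the heat, of 26 arrays in all: 5 of F1 and 5 of LW, with 1 pig on each one-colour porcine microarray. All were castrated males that entered the climatic room at 11 weeks of age and had free access to feed. The heat stress (HS) is 30 °C on the labels and 32 °C for up to 5 days in the text of the series. The other arrays served as reference and also entered the estimate of the spread behind the p-values. They came from 5 Creole pigs under HS and, at thermoneutrality (TN, 24 °C), from 3 Creole, 4 F1 and 4 LW pigs. The TN pigs were slaughtered before the temperature was raised. The pigs of a breed came from few litters and shared pens, TN pigs were littermates of HS pigs, and neither litter, pen, slaughter day nor parents are on the labels. The p-values therefore measure the spread between these pigs, and breed cannot be told apart from litter or pen.

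Backfat is a main site of fatty acid synthesis in the pig: glucose and acetate carbon is turned into acetyl-CoA, joined into fatty acids with NADPH, desaturated, and stored as triglyceride in adipocytes. Around the adipocytes lie a matrix of collagens made by fibroblasts, vessels, nerves and immune cells, mast cells among them. LW is a lean, fast-growing white breed, and the Creole is a local, coloured and fatter breed adapted to the tropics. In a piece of tissue, fewer cells of a type and less RNA per cell cannot be told apart.

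Values are log2 quantile-normalized spot intensities, so that a difference of 1 is a ratio of 2, and differences are F1 minus LW. Of 60305 probes, 44703 detected above background on at least 8 arrays were tested with limma, and 11017 named genes had at least 1 of them. The F1 and LW arrays did not differ in quality beyond their spread. Spots brighter than background by the scanner's criterion made up 71.5% ± 0.94 (SD, n = 5) in F1 and 72.5% ± 1.20 (SD, n = 5) in LW (two-sided exact permutation test over all splits, p = 0.175, of which the smallest possible is 0.00794). Correlations across probes were 0.985 to 0.993 within F1, 0.985 to 0.991 within LW and 0.983 to 0.990 between them, and probes are not independent replicates. Adipocyte transcripts marked the tissue in every array: ADIPOQ, which encodes adiponectin, was at 17.33 to 17.60 in F1 and 17.36 to 17.64 in LW, near the top of the intensity scale. Creole HS replicate 5 was below the other Creole HS arrays in the mean level of the fatty acid synthesis genes (-0.69 against 0.06 to 0.46). Creole HS replicate 3 had the lowest mean correlation with the other arrays of its group (0.981). Since all groups share 1 estimate of the spread, the effect of leaving out these arrays is given for the number of probes that passed. For replicate 5 it is also given for some genes.

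Few probes differed between the breeds under heat at the level of single probes. With limma and Benjamini-Hochberg adjustment, 5 of the 44703 probes had an adjusted p under 0.05, which is 0.0112%, and all 5 were lower in F1. They held 4 distinct sequences and stood for KIT, DNAJC7, C3H2orf40 and a probe without a gene name. At an unadjusted p under 0.05 there were 6420 probes (14.4%), of which 3472 were higher and 2948 lower in F1. The median difference over all probes was -0.01, the median size of a difference was 0.11, and 248 probes differed by more than 1. Every F1 array lay above every LW array for 775 probes (1.73%) and below for 604 (1.35%). The probe sequences of the genes that passed are shown because several of the calls rest on 1 or 2 probes of a gene. They come from the deposited scanner files. Capitals mark a run of 57 or 60 bases that a probe shares with another probe of the same gene, while shared runs of 5 to 7 bases are left in lower case, and the first KIT sequence is on the array under 2 names, so that all of it is in capitals.
KIT A_72_P165111: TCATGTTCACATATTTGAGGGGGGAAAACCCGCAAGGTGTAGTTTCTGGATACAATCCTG
KIT A_72_P180731: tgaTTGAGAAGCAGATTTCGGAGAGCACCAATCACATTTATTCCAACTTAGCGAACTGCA
KIT O299: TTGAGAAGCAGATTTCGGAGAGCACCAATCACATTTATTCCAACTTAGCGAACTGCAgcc
KIT A_72_P441559: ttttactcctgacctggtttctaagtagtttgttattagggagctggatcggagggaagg
DNAJC7 O8109: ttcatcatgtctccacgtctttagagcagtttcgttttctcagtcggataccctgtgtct
DNAJC7 A_72_P179831: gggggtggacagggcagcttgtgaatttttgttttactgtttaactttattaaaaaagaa
C3H2orf40 A_72_P329118: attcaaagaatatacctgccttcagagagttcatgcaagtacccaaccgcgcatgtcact
C3H2orf40 O11787: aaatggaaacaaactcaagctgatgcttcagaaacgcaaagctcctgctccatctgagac
Unnamed A_72_P027221: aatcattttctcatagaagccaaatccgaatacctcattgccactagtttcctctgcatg

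KIT was lower in F1 than in LW under heat. It encodes the receptor for stem cell factor, which mast cells and pigment cells need, and it is the locus of the dominant white coat of LW pigs. On the brighter probe with the repeated sequence, the F1 arrays were at 11.08, 11.23, 11.30, 10.43 and 10.41, and the LW arrays at 12.35, 12.11, 12.31, 12.15 and 12.60. The groups did not overlap, and the 2 lowest F1 values lay close to the Creole HS mean of 10.25 ± 0.47 (SD, n = 5). The difference was -1.41 (SE 0.24, limma, adjusted p = 0.0494), and that of the probe A_72_P165111, which has the same sequence, was -1.44 (adjusted p = 0.0494). The other KIT probes, of which A_72_P180731 and O299 share a run of 57 bases, gave -1.05, -1.13 and -1.41, each with an adjusted p of 0.0521. At TN the F1 mean was 11.40 ± 0.29 (SD, n = 4) and the LW mean 11.99 ± 0.48 (SD, n = 4), a difference of -0.60 (adjusted p = 0.312). The change of the difference with heat was -0.82, which did not pass the test of the interaction (limma, adjusted p = 0.75).

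The other mast cell transcripts on the array did not share the direction of KIT. HDC, the enzyme that makes histamine, was at 6.54 to 7.01 in F1 and 5.87 to 6.81 in LW (+0.53, adjusted p = 0.123). MS4A2, a chain of the IgE receptor, was at 6.91 to 7.34 in F1 and 6.68 to 7.25 in LW (+0.17, adjusted p = 0.514). With 1 array left out, MS4A2 ran from +0.10 to +0.24, and within slides 3 and 4, which held both groups, it was -0.05 and +0.24. MCT7, a mast cell tryptase, was at 7.67, 8.14, 7.66, 7.67 and 7.29 in F1 and at 6.12, 6.51, 6.77, 7.08 and 6.45 in LW. Its groups did not overlap, with a difference of +1.1 (SE 0.25, adjusted p = 0.1) and of +0.99 on its second probe. Of 7 mast cell markers 3 were measured, and 1 of them, KIT, passed. HDC, MS4A2 and MCT7 are named here after their values were seen.

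DNAJC7, a co-chaperone of the HSP40 family that binds both HSP70 and HSP90, was lower in F1 at both temperatures. On probe O8109 the F1 arrays were at 11.62, 11.75, 11.59, 11.87 and 11.68 and the LW arrays at 12.48, 12.48, 12.14, 12.36 and 12.24. Every F1 value was below every LW value. The difference was -0.63 (SE 0.09, limma, adjusted p = 0.0080) under heat and -0.51 (adjusted p = 0.0338) at TN, and this was the 1 probe that passed in both comparisons. Its Creole HS mean was 11.68 ± 0.19, at the level of F1. The second DNAJC7 probe, A_72_P179831, also had all F1 values (11.61 to 11.99) below all LW values (12.17 to 12.35), with a difference of -0.48 (adjusted p = 0.0956) under heat and -0.56 at TN. The spot of Creole HS replicate 1 was marked non-uniform on O8109 and was dropped. In the deposited normalized values, which kept it, the difference was -0.63 with an adjusted p of 0.21.

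C3H2orf40, the pig counterpart of a gene that encodes the secreted peptide augurin, gave a call on 1 of its 2 probes. On A_72_P329118 the F1 arrays were within 11.49 to 11.55 and the LW arrays at 12.04, 12.49, 12.09, 12.28 and 11.96. The groups did not overlap, and the difference was -0.65 (SE 0.11, adjusted p = 0.0494) against -0.27 (adjusted p = 0.319) at TN. The second probe, O11787, gave +0.14. The unnamed probe A_72_P027221 was at 6.57 to 6.86 in F1 and 7.15 to 7.41 in LW, a difference of -0.55 (SE 0.08, adjusted p = 0.0189) under heat and -0.28 at TN.

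**Figure D1:**
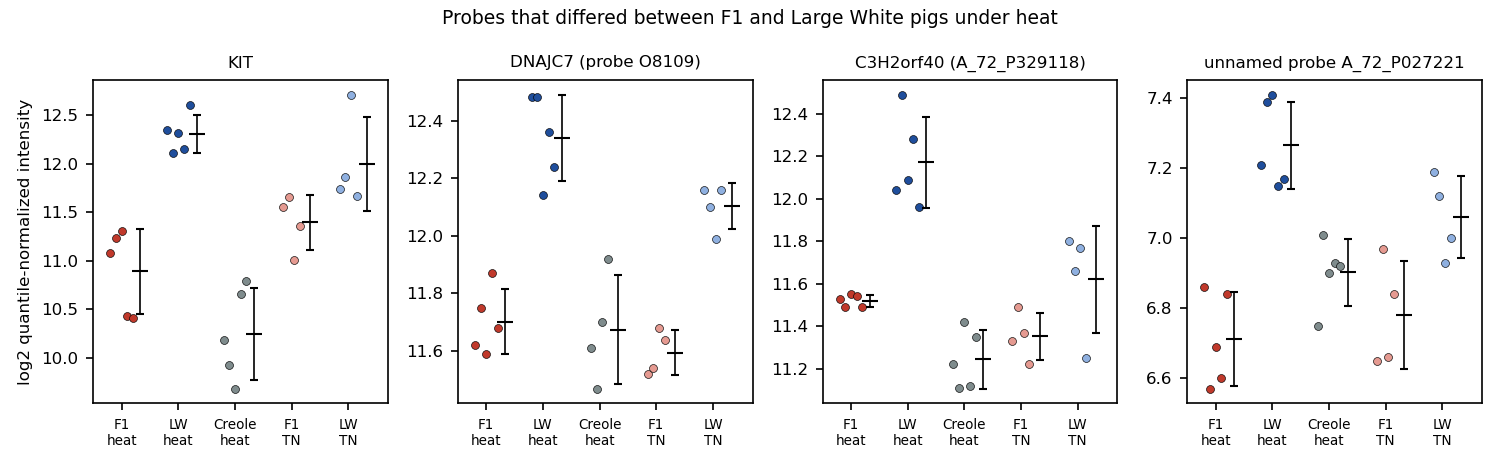
Log2 quantile-normalized intensity (vertical axis) on each array for KIT, DNAJC7, C3H2orf40 and the unnamed probe, with points for single pigs and bars for the group mean ± SD. The 5 F1 HS points of each panel lie below the 5 LW HS points, as in KIT with 10.41 to 11.30 against 12.11 to 12.60.

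The number of calls changed when single arrays were left out and with the slide as a block. In those fits the differences of the 3 named genes stayed of similar size, but within single slides they were uneven. With limma, 0 probes passed without LW HS replicate 1, without LW HS replicate 2 or with the slide as a fixed block, where 5741, 5360 and 5434 had an unadjusted p under 0.05. In these 3 fits the difference was -1.40, -1.46 and -1.61 for KIT, -0.60, -0.60 and -0.63 for DNAJC7, and -0.68, -0.57 and -0.58 for C3H2orf40. With each of the 26 arrays left out in turn, the called DNAJC7 probe passed in 24 fits, that of C3H2orf40 in 13 and at least 1 KIT probe in 12. With only the 10 arrays of the comparison fitted, none of the 5 probes passed (adjusted p = 0.0758 for KIT, 0.0761 for DNAJC7 and 0.0931 for C3H2orf40), and the 1 probe that did was higher in F1. Without Creole HS replicate 5 there were 175, of which 130 were higher in F1, and without Creole HS replicate 3 there were 13. Slides 3 and 4 held both groups. Slide 3 had F1 replicate 3 with LW replicates 3 and 4, and slide 4 had F1 replicate 4 with LW replicate 5. Within slides 3 and 4 the difference was -0.93 and -2.16 for KIT, -0.66 and -0.36 for DNAJC7, and -0.64 and -0.41 for C3H2orf40. With so few arrays these values are imprecise. When the values of all probes of a gene were averaged, 3 of 11017 genes passed: DNAJC7 (-0.56, adjusted p = 0.0062), ALDH1A1 (+0.48, adjusted p = 0.0154) and KIT (-1.29, adjusted p = 0.0171). ALDH1A1 is a retinaldehyde dehydrogenase that makes retinoic acid. On its brighter probe it was at 12.07, 11.94, 11.66, 11.93 and 12.10 in F1 and 11.21, 11.41, 11.09, 11.22 and 11.53 in LW, with no overlap, a difference of +0.65 (adjusted p = 0.1) and +0.31 on its second probe.

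With 1 probe per gene, the one with the highest mean level, 2 of 11017 genes passed (0.0182%). At an unadjusted p under 0.05, 948 genes were higher (8.6%) and 775 lower (7.03%) in F1, every F1 array lay above every LW array for 228 genes (2.07%) and below for 162 (1.47%). The gene lists below are described by these looser counts and by their median difference, which for all genes was 0.00 under heat and 0.02 at TN. On these probes, of the genes of the lists only KIT passed the adjusted test, while DNAJC7 of the HSP40 list passed on its dimmer probe and, like ALDH1A1 of the xenobiotic list, with its probes averaged. What follows gives levels and differences of genes that did not pass singly on these probes.

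Among the lists of gene functions, which leave out the lists of cell markers, fatty acid synthesis and desaturation had the largest median. Of its 15 measured genes 12 had a higher mean in F1, 9 of them at an unadjusted p under 0.05 and 1 the other way (SCD5, -0.41), and the median difference was +0.43 under heat and +0.03 at TN. SCD, the desaturase that makes oleic acid, was at 18.33, 18.00, 18.18, 18.75 and 18.70 in F1 and at 16.83, 17.84, 16.95, 17.64 and 17.56 in LW. All F1 values were above all LW values, and the difference was +1.03 (SE 0.27, adjusted p = 0.11), with +0.90 to +1.52 on its 10 other probes. At TN the means were 18.65 in F1 and 18.56 in LW, a difference of +0.09, so that the LW HS arrays were the low ones.

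ACLY, which splits citrate to acetyl-CoA in the cytosol, was at 17.48, 15.93, 17.23, 18.34 and 18.37 in F1 and at 15.59 to 16.84 in LW (+1.28, adjusted p = 0.202). F1 replicate 2 lay inside the LW range. ACACA, the rate-limiting carboxylase, was at 14.16 to 15.48 in F1 and 13.24 to 14.69 in LW (+1.03, adjusted p = 0.188), and ELOVL6, which lengthens palmitate, differed by +1.08 (adjusted p = 0.11). SLC25A1, the citrate carrier, was at 11.75 to 13.08 in F1 and 10.85 to 11.73 in LW, with no overlap (+1.02, adjusted p = 0.131). ACSS2, which activates acetate, was at 9.63 to 11.35 in F1 and 9.04 to 9.53 in LW on the probe A_72_P560374, also without overlap (+1.24, adjusted p = 0.117), and its 3 other probes gave +1.05 to +1.09.

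FASN, the fatty acid synthase, depended on the probe. Its brightest probe was at 18.22 to 18.66 in F1 and 17.96 to 18.38 in LW, a difference of +0.25 (adjusted p = 0.234), whereas its 4 other probes gave +0.90 to +0.97. Of the 10 genes that supply NADPH, 8 had a higher mean in F1 and 3 had an unadjusted p under 0.05, with a median of +0.15. ME1, the malic enzyme, was at 13.60, 12.70, 13.23, 14.66 and 14.61 in F1 and at 12.36, 12.24, 11.83, 12.59 and 13.01 in LW (+1.35, SE 0.38, adjusted p = 0.121), so that only F1 replicate 2 was below the highest LW value. PGD, an enzyme of the pentose phosphate pathway, differed by +0.45 (adjusted p = 0.123). F1 replicates 4 and 5 were the highest F1 arrays for SCD, ACLY, ACACA, ELOVL6 and ME1.

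The mean level of the fatty acid synthesis list, taken on each array as the mean deviation of its genes from their average over all arrays, was 0.00, -0.37, -0.11, 0.34 and 0.31 in F1 and -0.65, -0.32, -0.69, -0.26 and -0.43 in LW under heat. F1 replicate 2 was the F1 array within the LW range. The same level ran from -0.27 to 0.44 in F1 and from 0.00 to 0.11 in LW at TN, and Creole HS replicate 5 was at -0.69. Without that Creole array, 14 of the 104 probes chosen as representatives of named genes had an adjusted p under 0.05 that did not have one otherwise. SCD was among them (+1.03, limma, adjusted p = 0.0183), while ACLY, ACACA, ELOVL6, SLC25A1, ACSS2 and ME1 were not. ALDH1A1, LSS, GPAT4, HSPA4, TTC25, C9 and ACKR4, higher in F1, were also among the 14. So were COMP, RBM38 and the DNAJC7 probe A_72_P179831, lower in F1. In that fit their adjusted p ran from 0.0298 for ALDH1A1 to 0.0484 for ACKR4 (limma).

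Steps after fatty acid synthesis gave smaller differences. Of 32 genes of fatty acid uptake, triglyceride synthesis and lipid droplets, 21 had a higher mean in F1, 12 of them at an unadjusted p under 0.05 against 1 lower (PLIN3, -0.26), with a median of +0.14. GPAT4, which starts triglyceride synthesis, was at 12.21, 11.90, 11.76, 12.56 and 12.26 in F1 and 11.13, 11.55, 11.07, 11.42 and 11.58 in LW, without overlap (+0.79, adjusted p = 0.101). AGPAT1 and DGAT1, of the following and the last step, differed by +0.54 and +0.48 (adjusted p = 0.112 and 0.123). LPL, the lipoprotein lipase, gave +0.50 on its brightest probe and -0.68 to +0.30 on the 6 others, so its direction depended on the probe. Of 17 lipolysis genes 2 were higher and 2 lower at an unadjusted p under 0.05, with a median of 0.00, and the hormone-sensitive lipase LIPE differed by +0.09. PRKACB, a catalytic subunit of protein kinase A, was at 9.72 to 10.33 in F1 and 10.33 to 10.72 in LW (-0.50, adjusted p = 0.108), and its other probe gave -0.10.

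**Figure D2:**
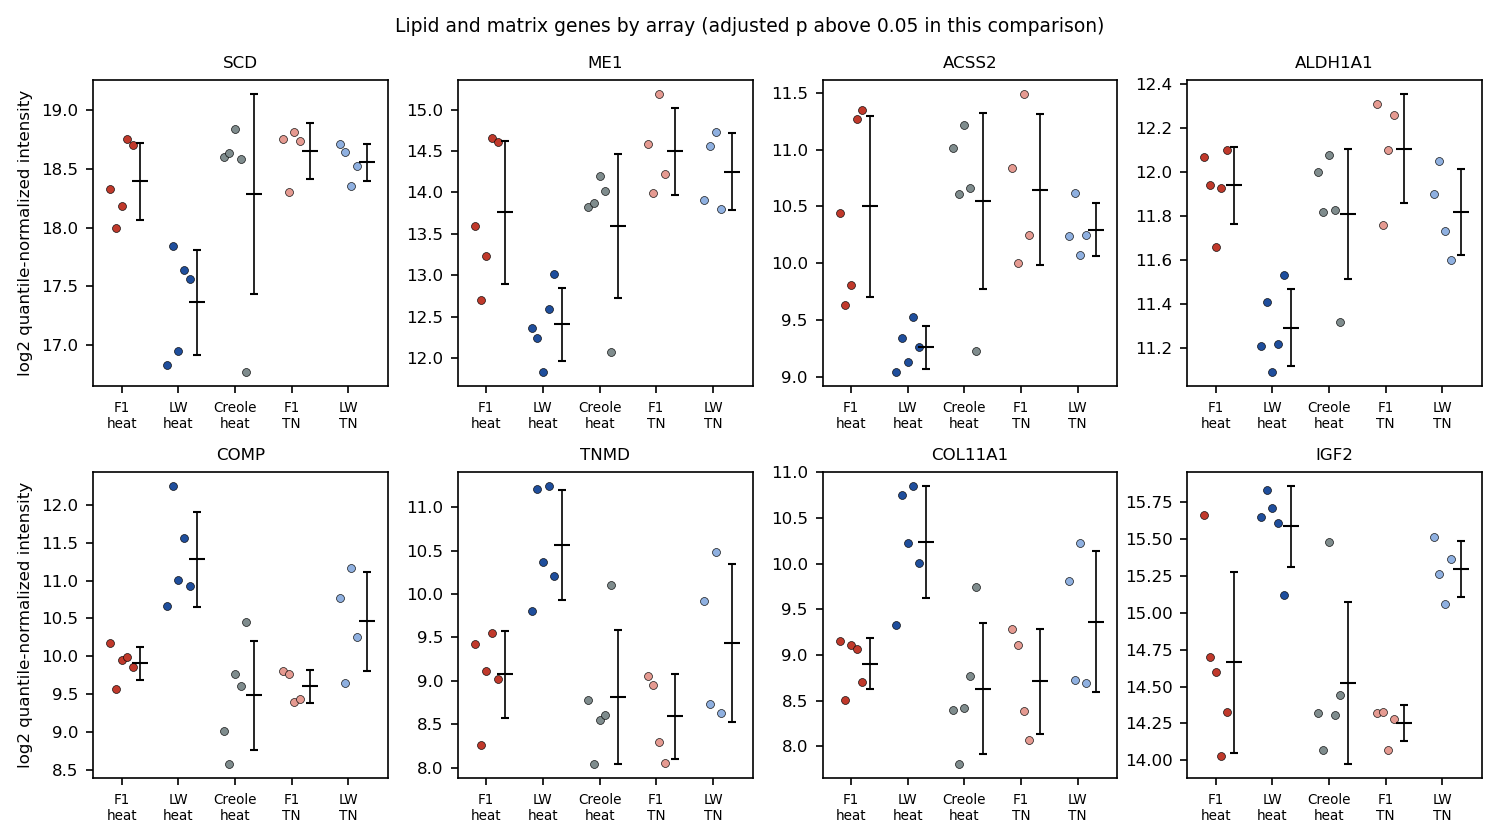
Log2 quantile-normalized intensity by array for SCD, ME1, ACSS2, ALDH1A1, COMP, TNMD, COL11A1 and IGF2, with points for pigs and bars for the group mean ± SD. The SCD points of F1 under heat, 18.00 to 18.75, lie above those of LW under heat, 16.83 to 17.84, and the F1 and LW points at TN overlap.

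Genes of mitochondrial energy metabolism had small differences that leaned to one side. For the TCA cycle, 13 of 14 genes had a higher mean in F1 and 9 had an unadjusted p under 0.05 (none in the other direction), with a median of +0.25 under heat and +0.07 at TN. CS, the citrate synthase, was at 15.40, 15.12, 15.29, 15.32 and 15.48 in F1 and 15.00, 15.17, 14.96, 15.02 and 15.01 in LW (+0.29, adjusted p = 0.123). LW replicate 2 was the LW array inside the F1 range, and the 7 other probes of CS gave +0.21 to +0.40. Of 33 subunits of complex I, which passes electrons from NADH to ubiquinone, 31 had a higher mean in F1 and 16 an unadjusted p under 0.05, with a median of +0.22. Its subunit NDUFA6 was at 11.46 to 12.39 in F1 and 11.15 to 11.35 in LW, without overlap (+0.63, adjusted p = 0.104). Of 35 subunits of complexes III to V, 30 had a higher mean in F1 and 12 an unadjusted p under 0.05, with a median of +0.23. The mean level of these 35 was -0.04, -0.22, -0.18, 0.27 and 0.21 in F1 and -0.28 to -0.16 in LW. For complex I it was 0.04, -0.12, -0.18, 0.21 and 0.16 against -0.27 to -0.12. F1 replicates 4 and 5 were thus the highest, and F1 replicates 2 and 3 lay within the LW range or at its edge. For the TCA cycle F1 replicate 2 (-0.24) lay within the LW range of -0.34 to -0.20.

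Cytochrome c and fatty acid oxidation went the same way in value. On probe A_72_P681213, CYCS, which encodes cytochrome c, had a mean of 11.62 ± 0.49 (SD, n = 5) in F1 and 10.43 ± 0.39 (SD, n = 5) in LW, and its arrays did not overlap (+1.18, adjusted p = 0.0947). Of 21 fatty acid oxidation genes 16 had a higher mean in F1, 6 with an unadjusted p under 0.05, with a median of +0.12. CPT2, the inner carnitine palmitoyltransferase, was at 9.22 to 9.51 in F1 and 8.61 to 9.03 in LW (+0.48, adjusted p = 0.102). UCP2, an uncoupling protein, was at 9.92 to 11.15 in F1 and 11.23 to 12.04 in LW, without overlap, and all its probes were between -0.86 and -0.79 (adjusted p = 0.126 on the brightest).

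Sugar uptake, cholesterol synthesis and the enzymes against oxidants and foreign compounds had medians from +0.15 to +0.24. Of 19 genes of glucose uptake and glycolysis 15 had a higher mean in F1 (7 with an unadjusted p under 0.05), among them SLC2A4, the insulin-responsive glucose transporter, with +0.74 (adjusted p = 0.184). SLC2A5, a fructose transporter, was at 6.35 to 9 in F1 and 5.67 to 6.79 in LW (+1.44, adjusted p = 0.215). Of 16 cholesterol synthesis genes 13 had a higher mean in F1, 2 with an unadjusted p under 0.05, and the median was +0.24 under heat and -0.06 at TN. Their mean level was -0.09, -0.38, -0.24, 0.29 and 0.25 in F1 and -0.25 to -0.20 in LW. F1 replicate 2 was thus below every LW array and F1 replicate 3 within the LW range, while F1 replicates 4 and 5 were the highest. LSS, the lanosterol synthase, was at 7.32 to 8.03 in F1 and 6.88 to 7.16 in LW, without overlap (+0.68, adjusted p = 0.101).

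Of 33 antioxidant enzymes, 24 had a higher mean in F1, with 12 higher and 2 lower at an unadjusted p under 0.05 and a median of +0.17. The peroxiredoxin PRDX1 differed by +0.56 and the mitochondrial thioredoxin TXN2 by +0.23 (adjusted p = 0.218 and 0.173), the latter on a probe well above background on 5 F1 arrays and 2 LW arrays. SOD2, the mitochondrial superoxide dismutase, was one of the lower ones, at 12.40 to 12.71 in F1 and 12.73 to 13.17 in LW (-0.44, adjusted p = 0.209). Of 29 glutathione transferases, aldo-keto reductases and other xenobiotic enzymes, 21 had a higher mean in F1, with a median of +0.15, and every F1 array was above every LW array for 4 and below for 1. At an unadjusted p under 0.05, 8 were higher and 1 lower. AKR1C4, a reductase of steroids, was at 13.25 to 14.06 in F1 and 12.09 to 13.14 in LW (+1.00, adjusted p = 0.101), and MGST2, a microsomal glutathione transferase, at 11.82 to 13.67 and 11.33 to 12.40 (+1.01, adjusted p = 0.117).

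**Figure D3:**
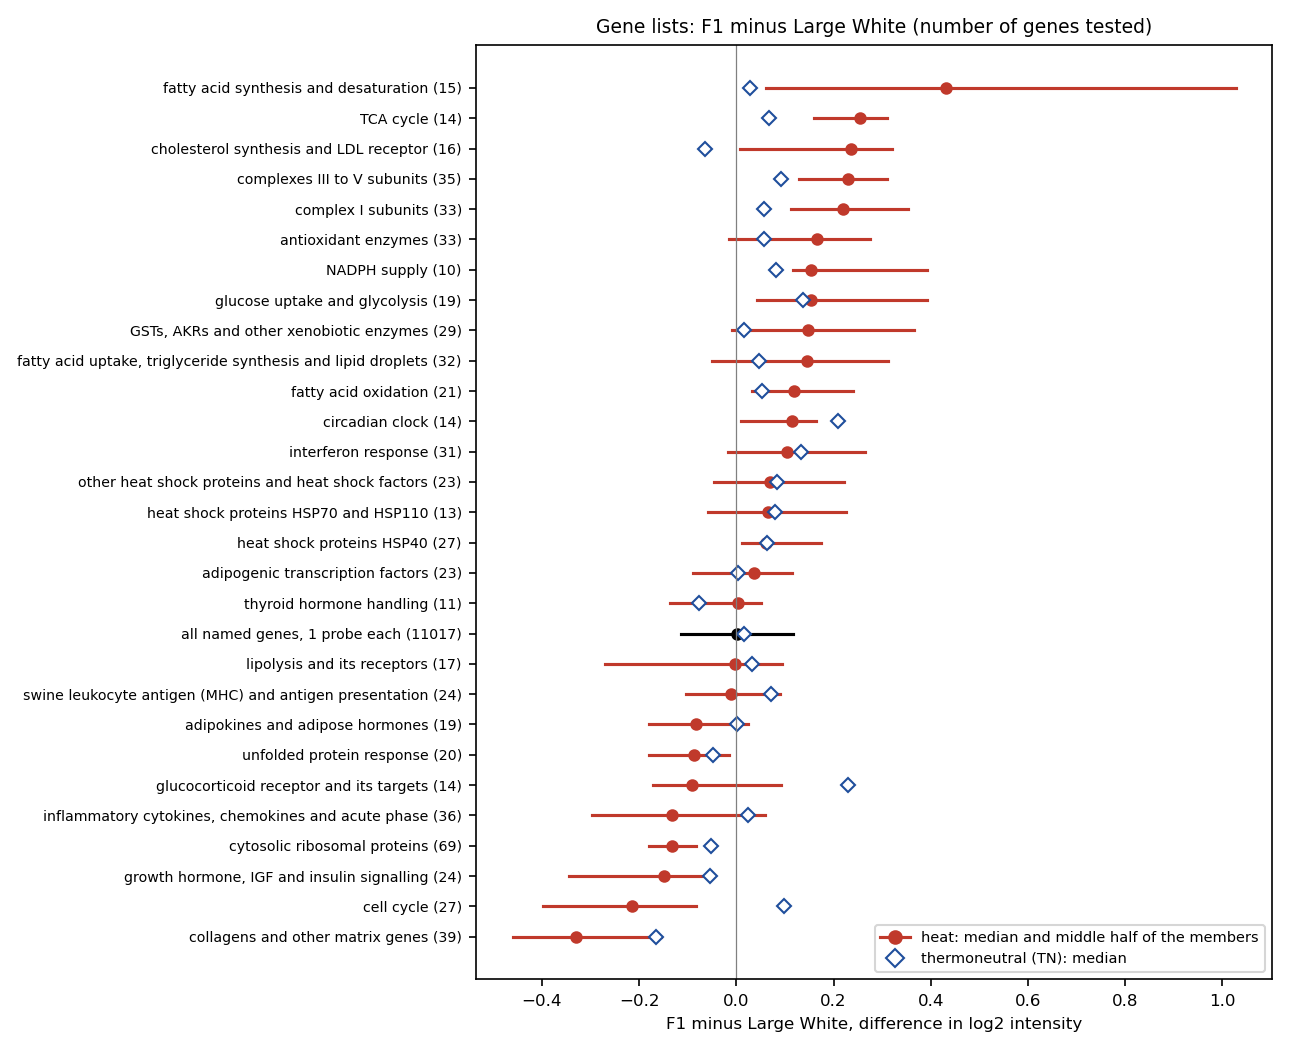
Median F1 minus LW difference in log2 intensity of each list of gene functions (lists of cell markers are not drawn), with circles and lines for the median and the middle part (25th to 75th percentile) of the genes under heat, diamonds for the median at TN, and the number of genes tested in brackets. Fatty acid synthesis is at the top with +0.43, collagens and other matrix genes at the bottom with -0.33, and all named genes are at 0.00.

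Matrix genes were on the other side. Of 39 collagens and other matrix genes, 34 had a lower mean in F1, with 14 lower and 1 higher at an unadjusted p under 0.05 (the higher one was COL5A2, +0.26), and the median was -0.33 under heat and -0.16 at TN. TNC, the matrix protein tenascin-C, was at 8.36, 8.37, 8.79, 8.42 and 8.63 in F1 and 9.01, 9.80, 9.42, 9.34 and 8.93 in LW, without overlap (-0.79, SE 0.20, adjusted p = 0.105). The lysyl oxidase LOX, which crosslinks collagen, was at 11.53 to 11.89 in F1 and 11.92 to 12.67 in LW (-0.56, adjusted p = 0.215) with -0.39 and -0.11 on its other probes, and COL6A3, a chain of collagen VI, differed by -0.46 (adjusted p = 0.232) with -0.59 to -0.15 on its 9 other probes. LUM, the proteoglycan lumican, gave -0.51 on its brightest probe, but its 10 other probes ran from -0.38 to +1.62.

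On the probes given here, COMP, TNMD, COL11A1 and COL2A1 were lower in F1 by more than the matrix genes named above. They are single genes and not a list that was tested. COMP, a cartilage matrix protein, was at 10.17, 9.57, 9.95, 9.99 and 9.86 in F1 and 10.66, 12.25, 11.01, 11.56 and 10.93 in LW (-1.37, SE 0.31, adjusted p = 0.101). TNMD, a membrane protein of tendon that adipose tissue also makes, was at 8.26 to 9.55 in F1 and 9.81 to 11.24 in LW (-1.49, adjusted p = 0.184). COL11A1 and COL2A1, collagens of cartilage, differed by -1.33 and -1.34 on their brightest probes (adjusted p = 0.139 and 0.166). The 5 other COL11A1 probes gave -1.16 to +0.13, and with its probes averaged COL11A1 differed by -0.77. The F1 and LW arrays did not overlap for any of these 4 genes, and LW replicates 2 and 4 were the highest for all of them. At TN the differences were -0.86 for COMP, -0.85 for TNMD, -0.65 for COL11A1 and -0.70 for COL2A1.

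Markers of fibroblasts and nerves had negative medians as well, and none passed. Of 12 fibroblast and preadipocyte markers 11 had a lower mean in F1 and 3 had an unadjusted p under 0.05, with a median of -0.25, and their mean level was -0.04 to 0.21 in F1 and -0.08 to 0.61 in LW. Of 11 nerve and Schwann cell markers 9 had a lower mean in F1, 6 with an unadjusted p under 0.05, with a median of -0.30 and mean levels of -0.24 to 0.37 in F1 and 0.25 to 0.55 in LW. GAP43, a protein of growing axons, was at 6.93 to 7.14 in F1 and 7.17 to 8.39 in LW (-0.74, adjusted p = 0.12). The mean level of 10 adipocyte markers was -0.16 to 0.11 in F1 and -0.21 to -0.07 in LW, with a median of +0.13. The part that these cell types have in the lipid and matrix differences was not tested.

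Skeletal muscle and skin transcripts varied from pig to pig, and their medians under heat had the opposite sign of those at TN. Of 15 muscle markers 14 had a lower mean in F1 under heat, with a median of -0.50, whereas at TN all 15 had a higher one, with a median of +1.41. Of 9 keratinocyte markers 7 had a higher mean in F1 under heat, with a median of +0.48, and 0 at TN, with a median of -1.13. None of them passed under heat. The muscle markers had a mean level of -0.94 to 0.62 in F1 and -0.69 to 1.68 in LW, and the keratinocyte markers one of -0.54 to 2.42 in F1 and -0.75 to 1.36 in LW, with F1 replicates 3 and 5 and LW replicates 2 and 3 above 1. Without these 4 arrays, and with the arrays of the other groups kept whatever their level, an alternative chosen after seeing the data, 0 probes passed and 3899 had an unadjusted p under 0.05. That fit compared only F1 replicates 1, 2 and 4 with LW replicates 1, 4 and 5. In it the called probes differed by -1.46 for KIT, -0.61 for DNAJC7 and -0.57 for C3H2orf40. The median of fatty acid synthesis was then +0.44, that of the TCA cycle +0.26 and that of the matrix list -0.20. That of fibroblast markers was -0.12 (from -0.25), that of cholesterol synthesis +0.14 (from +0.24), that of the cell cycle -0.04 (from -0.22), and that of 9 T and NK cell markers -0.21 (from +0.15). The medians of muscle, keratinocyte and macrophage markers were -1.24, +0.05 and -0.31 (from -0.50, +0.48 and -0.05). That of the glucocorticoid receptor list turned from -0.09 to +0.09. For fatty acid oxidation, the circadian clock and the unfolded protein response the medians were +0.07, +0.04 and -0.05 (from +0.12, +0.11 and -0.09). Single genes described here moved as well. The difference was then +0.66 for AKR1C4, +0.49 for MGST2, +0.78 for SLC2A5, +0.76 for NPSR1, +0.36 for RDH16 and +0.12 for FASN, each smaller than with all arrays. It was also nearer to 0 for TOP2A (-0.37), LOX (-0.33), COL6A3 (-0.31), NFKBIA (-0.13) and the HLA-E probe O10747 (-1.94). The same held for IGF2 (-0.67), COMP (-1.14) and COL2A1 (-1.01). Of the lipid and NADPH genes, ACACA (+0.77), SLC25A1 (+0.77), PGD (+0.34), AGPAT1 (+0.41), ACLY and ME1 were smaller as well. SCD (+1.01) and ELOVL6 (+0.99) changed less, and GPAT4 (+0.85) and LPL (+0.63) were larger. The median of fatty acid synthesis thus hides smaller differences in several of its genes. The difference was also farther from 0 for LEP (+1.05) and FKBP5 (+0.71).

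The growth factor IGF2 was the gene of the insulin and IGF list with the smallest p. IGF2 is an imprinted growth factor of muscle and other tissues. Its arrays were at 15.66, 14.70, 14.60, 14.03 and 14.33 in F1 and at 15.65, 15.83, 15.71, 15.61 and 15.12 in LW. F1 replicate 1 was at the level of LW and the other F1 arrays below all LW arrays, with a difference of -0.92 (SE 0.24, adjusted p = 0.108), and the 8 other probes gave -0.96 to -0.51. At TN the difference was -1.05, between 14.25 ± 0.12 (SD, n = 4) in F1 and 15.30 ± 0.19 (SD, n = 4) in LW, and the Creole HS mean was 14.52 ± 0.55. Of the 24 genes of this list 22 had a lower mean in F1, 5 with an unadjusted p under 0.05 and 4 without overlap, with a median of -0.15. IGFBP4 and IGFBP5, binding proteins of IGFs, differed by -0.50 and -0.63 (adjusted p = 0.156 and 0.285), and IGF1 by +0.08.

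Ribosomal protein genes had small negative differences. Of 69 measured, 62 had a lower mean in F1 and 33 had an unadjusted p under 0.05, with none the other way, a median of -0.13 under heat and -0.05 at TN. Their mean level was 0.09, 0.07, -0.04, -0.11 and -0.11 in F1 and 0.04 to 0.16 in LW, with F1 replicates 1 and 2 within the LW range. RPS3, a protein of the small subunit, was at 17.76 to 18.02 in F1 and 18.04 to 18.22 in LW, without overlap (-0.24, adjusted p = 0.108). These transcripts are among the most abundant, and their probes can also bind transcripts of processed copies. Of 27 cell cycle genes 23 had a lower mean in F1 under heat and 7 of these an unadjusted p under 0.05, against 1 higher, with a median of -0.22 against +0.10 at TN. Without the 4 arrays of high keratinocyte level the median was -0.04 and 12 of the 27 had a higher mean in F1, against 4 with them. TOP2A, the topoisomerase of dividing cells, differed by -0.76 (adjusted p = 0.245).

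Heat shock genes had medians near that of all genes. Of 13 HSP70 and HSP110 genes 2, of 27 HSP40 genes 6 and of 23 other heat shock genes 1 were higher at an unadjusted p under 0.05, against 0, 1 (DNAJC7) and 1 lower, with medians of +0.07, +0.06 and +0.07. HSPA4, of the HSP110 kind, was at 7.72 to 8.66 in F1 and 7.24 to 7.62 in LW, without overlap (+0.78, adjusted p = 0.108). HSPB1, a small heat shock protein, was at 14.26 to 15.55 in F1 and 13.63 to 14.30 in LW (+0.83, adjusted p = 0.184). The constitutive HSPA8 and the inducible HSP90AA1 both differed by 0.00 on their brightest probes (adjusted p = 0.999 and 0.994). DNAJC12, another co-chaperone, was at 8.47 to 9.16 in F1 and 7.88 to 8.43 in LW (+0.63, adjusted p = 0.116).

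The following lists of adipose hormones, regulators and immune genes had medians from -0.13 to +0.11. Of 19 adipokines 0 had an unadjusted p under 0.05. LEP, leptin, was at 8.97 to 11.03 in F1 and 9.03 to 10.06 in LW (+0.67, adjusted p = 0.57), ADIPOQ differed by -0.03, and PPARG, the master regulator of adipocytes, by -0.24 (adjusted p = 0.35) with -0.22 to -0.01 on its 4 other probes. FKBP5, a target of the glucocorticoid receptor, differed by +0.20 (adjusted p = 0.789), and the median of its list was -0.09. The inflammatory list had a median of -0.13, with 1 gene higher and 5 lower of 36 at an unadjusted p under 0.05, and NFKBIA, the inhibitor of NF-kB, was at 14.27 to 14.84 in F1 and 14.82 to 15.13 in LW (-0.36, adjusted p = 0.156). Of 31 interferon response genes 0 had an unadjusted p under 0.05, with a median of +0.11, and the medians were -0.01 for 24 antigen presentation genes, -0.09 for 20 genes of the unfolded protein response, +0.11 for 14 circadian clock genes, +0.04 for 23 adipogenic transcription factors and 0.00 for 11 thyroid hormone genes.

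Some genes outside the lists had some of the smaller p-values under heat without passing the adjusted test. RBM38, an RNA-binding protein, was at 5.28 to 5.85 in F1 and 6.01 to 6.86 in LW on a probe that was well above background on 5 LW arrays and on 1 F1 array, so that the F1 level is poorly measured (-1.06, adjusted p = 0.0921), and its 3 other probes gave +0.11 to +0.34. TTC25, a protein of cilia, was at 8.02 to 9.07 in F1 and 6.47 to 7.84 in LW on one probe (+1.40, adjusted p = 0.1) and gave -0.15 on the other. C9, a complement component, differed by +1.31, NPSR1, the receptor of neuropeptide S, by +1.15, and ACKR4, a scavenger of chemokines, by +1.02 (adjusted p = 0.1, 0.104 and 0.101). ACY1, an aminoacylase, had means of 11.52 ± 0.27 (SD, n = 5) in F1 and 10.81 ± 0.08 (SD, n = 5) in LW (+0.71, adjusted p = 0.0521). These genes are named because their arrays did not overlap or their p was among the smallest, a choice made after their values were seen.

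**Figure D4:**
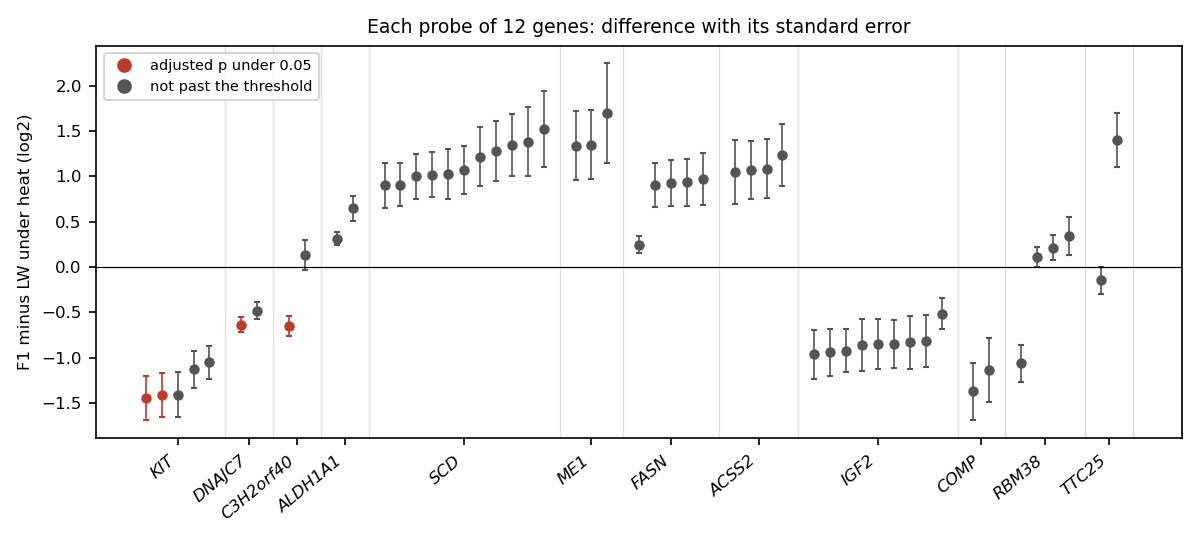
Difference F1 minus LW under heat in log2 intensity, with its standard error, for each probe of 12 genes, with red for an adjusted p under 0.05. All probes of KIT, SCD, ME1, ACSS2 and IGF2 have one sign, whereas the probes of C3H2orf40, RBM38 and TTC25 differ in sign.

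The largest differences came from single probes with very uneven levels between pigs. Among them were probes of COX1, ND1 and ND2, which the mitochondrial genome encodes, and their sequences are shown because all other probes of the same genes gave smaller differences.
COX1 A_72_P762153: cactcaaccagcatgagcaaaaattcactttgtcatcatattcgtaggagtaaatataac
ND1 A_72_P745561: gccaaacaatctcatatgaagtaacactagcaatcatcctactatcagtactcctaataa
ND2 A_72_P719508: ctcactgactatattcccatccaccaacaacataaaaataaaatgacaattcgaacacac

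On the COX1 probe, all F1 arrays under heat were at 16.20 to 17.12, and the LW arrays at 11.78, 11.90, 12.57, 12.82 and 16.62. LW replicate 5 was thus within the F1 range and the other LW arrays far below it, and the difference of +3.52 (SE 0.97) had an adjusted p of 0.117. The 24 other COX1 probes gave -0.05 to +1.21. At TN the F1 arrays were at 16.74 to 17.12, and the LW arrays at 13.37, 13.42, 17.04 and 16.99. Among Creole pigs, HS replicate 4 was at 16.80 and TN replicate 2 at 17.30, and the other 6 were between 12.10 and 13.72. ND1 (+2.74, adjusted p = 0.108) and ND2 (+2.82, adjusted p = 0.117) had the same arrays high and low: LW replicate 5 was at 14.97 and 16.08, and the other LW arrays were at 11.52 to 12.09 and at 12.34 to 12.84. The 19 other ND1 probes gave -0.35 to +2.04 and the 12 other ND2 probes +0.28 to +1.97.

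Other probes were high or near the bottom of the scale in different pigs. The CYCS probe A_72_P592869 was at 5.90 and 5.98 in LW replicates 1 and 5, at 10.25 to 11.36 in the other LW arrays and at 11.56 to 12.40 in F1, a difference of +2.92 (adjusted p = 0.201) that was +3.08 at TN. The SOD2 probe A_72_P444413 was at 9.27 to 10.48 in LW and at 9.07, 6.09, 6.61, 6.43 and 6.45 in F1 (-2.88, adjusted p = 0.138), whereas the 8 other SOD2 probes gave -0.44 to +0.18. HLA-E, the name in the files for a class I histocompatibility gene, was at 10.49, 8.71, 6.14, 6.20 and 6.22 in F1 and 9.55 to 10.86 in LW (-2.97, adjusted p = 0.112). SLA-5, another class I gene, was at 10.83 to 12.55 in F1 and at 6.72, 6.61, 7.81, 11.49 and 8.71 in LW (+3.43, adjusted p = 0.136). Class I genes are nearly identical copies, so these probes may read more than 1 of them. FABP6, a bile acid binding protein, was at 5.74 to 6.26 in F1, at 12.43 and 12.14 in LW replicates 2 and 4 and at 5.75 to 5.88 in the other LW arrays (-2.52, adjusted p = 0.317).

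**Figure D5:**
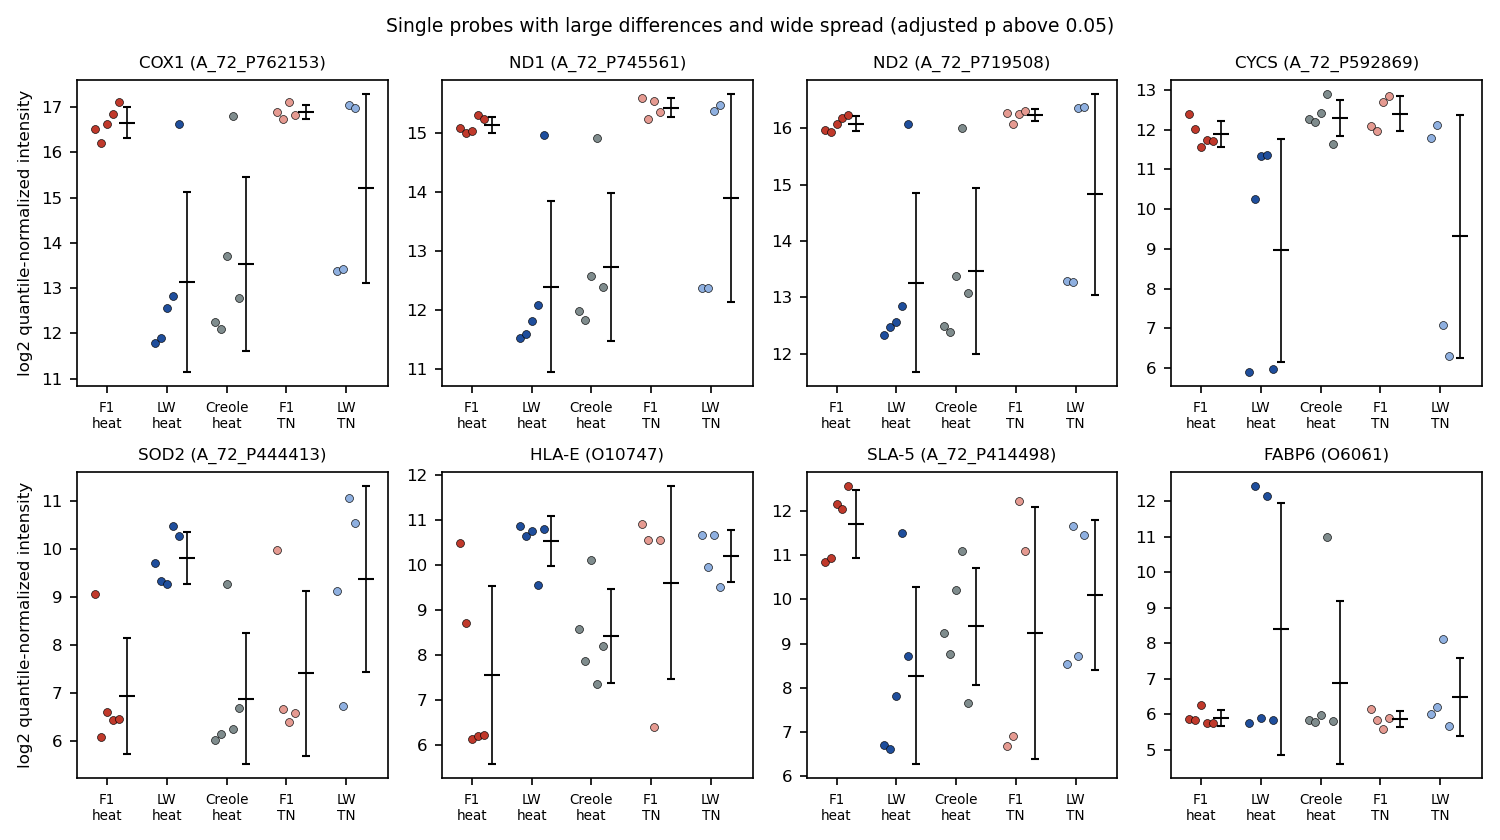
Log2 quantile-normalized intensity by array for single probes of COX1, ND1, ND2, CYCS, SOD2, HLA-E, SLA-5 and FABP6, with points for pigs and bars for the group mean ± SD. On the COX1, ND1 and ND2 probes LW replicate 5 lies with the F1 arrays and the other LW HS arrays several units lower.

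The same breeds were also compared at TN, with other pigs that were littermates of the HS pigs. Differences between litters can thus recur in both comparisons and cannot be told apart from breed. There 98 probes passed (0.219%), 61 of them higher in F1, and 93 of the 98 had the same sign under heat (94.9%), against 61.1% of all probes. Of the 412 probes with an unadjusted p under 0.001 under heat, 374 had the same sign at TN (90.8%). The test of the difference between both temperatures passed for 1 probe (0.00224%), with 2967 at an unadjusted p under 0.05 (6.64%). The probe, A_72_P123631, has no gene name, and its F1 and LW means under heat were 6.56 and 6.57 while at TN they were 6.64 and 7.72. Among named genes the smallest p-values of that test belonged to PIGL, RDH16 and HSD17B7, with differences of +0.39, +0.63 and +0.27 under heat and -0.62, -1.11 and -0.74 at TN, and none passed (smallest adjusted p = 0.582). The smaller medians of the lipid lists at TN were thus not shown to differ from those under heat.

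With both temperatures in 1 breed effect, an alternative that asks about the breeds in general, 1890 probes passed (4.23%), 1099 higher and 791 lower in F1. With 1 probe per gene there were 280 higher (2.54%) and 185 lower (1.68%). Most of the genes named next were picked by their values on the heat arrays, which this breed effect also uses. Their adjusted p here is therefore not a separate test. KIT (-1.05, adjusted p = 0.00721), IGF2 (adjusted p = 0.00705), COMP (adjusted p = 0.0108), GAP43 (adjusted p = 0.0108) and TNC (adjusted p = 0.0146) were lower in F1. MCT7 (adjusted p = 0.00705), LSS (adjusted p = 0.00705), AKR1C4 (adjusted p = 0.00733), CPT2 (adjusted p = 0.00733) and ALDH1A1 (adjusted p = 0.0142) were higher. HSD17B4, a peroxisomal enzyme of fatty acid oxidation, differed by +1.07 under heat and by +1.07 at TN and passed over both (adjusted p = 0.00248). SCD, ME1, ACLY and ACACA did not pass over both temperatures (adjusted p = 0.103, 0.09, 0.294 and 0.278). Of the matrix list 1 gene was higher and 5 were lower, of the ribosomal list 0 and 7, of the xenobiotic list 6 and 1, of the triglyceride list 4 and 0, and of fatty acid synthesis 0 and 0.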

How the data were processed

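Total RNA of SCAT from 26 pigs was hybridised to one-colour Agilent arrays on 5 slides. The scanner files deposited by the authors, from Feature Extraction 10.10.1.1, hold the median and mean spot intensity and local background intensity, a processed intensity, and scores used as flags for spots well above background, saturated or non-uniform. The matrix deposited by the authors holds log2 quantile-normalized intensities and was used as an alternative. Median intensities were quantile-normalized without background subtraction, set to missing where non-uniform, and fitted as 6 group means in limma 3.58.1 (R 4.3.3, eBayes with trend), with Benjamini-Hochberg adjustment over 44703 probes at a threshold of 0.05. No spot was saturated. The authors' random effects of pen, slaughter day and parents are not on the labels. The procedure was tested on simulated data. The number of arrays limits the precision. Replicate numbers follow the order of deposition.

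Names came from accessions and symbols in the files matched to a RefSeq table: 34092 of 60306 spots stayed unnamed. Probe positions were not used here. A gene of a list was represented by its brightest probe. Genes were named if they passed (fewer did than the 14 allowed in each direction), if they had the smallest p of their list or of the interaction, or as heads of their pathway, and the others were chosen after their values were seen. A few such genes were left out of the text. The breeds compared and the lists were chosen with earlier results of these data known. Alternatives covered the arrays fitted, slide, trend, weights, normalization, probe filter, probe averaging and each array left out.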

Additional observations from a re-analysis of the deposited data

Results flagged for a closer look

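In 15 of 296 sets of 5 arrays, all of F1 or LW under heat, 1 array lay far from the others of its group by Dixon's criterion, and chance alone gives about 1 in 20. The array that lay apart was not the same one for every gene. In LW under heat it was at 15.17 for CS (others 14.96 to 15.02), 6.93 for OAS1 (others 10.74 to 12.07), 17.96 for FASN (others 18.27 to 18.38), 9.96 for FKBP5 (others 8.65 to 8.98), 10.85 for SLC25A1 (others 11.48 to 11.73) and 7.88 for DNAJC12 (others 8.36 to 8.43). It was at 16.62 for COX1 (others 11.78 to 12.82), 16.08 for ND2 (others 12.34 to 12.84), 14.97 for ND1 (others 11.52 to 12.09) and 9.55 for HLA-E (others 10.65 to 10.86). In F1 under heat it was at 5.93 for DIO3 (others 5.61 to 5.70), 13.59 for LUM (others 12.96 to 13.13), 9.07 for the SOD2 probe A_72_P444413 (others 6.09 to 6.61) and 6.26 for FABP6 (others 5.74 to 5.87). The mean level of the glucocorticoid receptor list was -0.66 in 1 F1 array and 0.04 to 0.23 in the others.

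The unnamed probe A_72_P123631 had a breed difference that changed with temperature by 1.08 (limma, adjusted p = 0.0056). Its F1 arrays were at 6.43 to 6.75 under both conditions, and its LW arrays at 6.26 to 6.85 under heat and 7.62 to 7.91 at TN.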

How the results depend on the processing

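The number of probes that passed under heat, 5, was 1 (another probe, higher in F1) with only the arrays of the groups compared, 0 with the slide as a fixed block, 9 with the slide as a random block, 15 with array weights, 2 without the trend, 0 with the processed intensity scaled to the 75th percentile, 2 with normexp, 1 with the deposited matrix, 2 without a filter, 10 with probes well above background on all 26 arrays, 1890 with both temperatures in 1 effect, 3 with probes of a gene averaged, 0 without the arrays of high keratinocyte score (added after seeing the data), and 0 to 175 with 1 array left out. At TN the 98 became 19, 1, 1063, 46 and 29 with only the groups compared, the slide as a fixed block, array weights, no filter and averaged probes, and 2 to 500 with 1 array left out. The 1 interaction probe became 2, 0 and 0 with only the groups compared, the slide as a fixed block and averaged probes, and 1 to 4 with 1 array left out. The cause was not tested.

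KIT stayed between -1.61 and -1.05 and passed in 16 of 39 alternatives, DNAJC7 between -0.68 and -0.55 (32 of 39), and C3H2orf40 between -0.70 and -0.26 (17 of 39). These are values of 1 called probe, except in the alternative that averaged the probes of a gene. KIT (-1.29) and DNAJC7 (-0.56) passed there, and C3H2orf40 had its -0.26 there (limma, adjusted p = 0.221). The value of its called probe nearest to 0 was -0.48, with both temperatures in 1 effect. With the slide as a fixed block the adjusted p was 0.15 for KIT, 0.15 for DNAJC7 and 0.196 for C3H2orf40. Some signs turned, both of values near 0 and of larger ones. HSPA8 was 0.15 with the slide as a fixed block, 0.015 as a random block, 0.043 with weights, 0.097 at the 75th percentile, 0.052 with averaged probes, 0.031 without the arrays of high keratinocyte score and -0.0998 to 0.11 with 1 array left out. ADIPOQ was 0.0404 at the 75th percentile and -0.074 to 0.0091 with 1 array left out. With averaged probes LPL (+0.50 on its brightest probe) was -0.0074 and LUM (-0.51) 0.19. Over both temperatures PIGL, RDH16 and HSD17B7 (+0.39, +0.63 and +0.27 under heat) were -0.057, -0.14 and -0.18. With 1 array left out HSP90AA1 ran from -0.094 to 0.073, IGF1 from -0.037 to 0.16 and FKBP5 from -0.016 to 0.43. LIPE and FABP6 kept their sign but ran from 0.0061 to 0.20 and from -3.18 to -1.51. Within slides 3 and 4 LIPE was 0.29 and -0.39. The medians of fatty acid synthesis (0.31 to 0.47), the TCA cycle (0.14 to 0.33), complex I (0.15 to 0.30), matrix (-0.33 to -0.20) and ribosomal genes (-0.14 to -0.04) kept their sign in the 13 alternatives of the model and processing, and 13 of 41 lists changed sign in at least 1. No paired analysis was made, because the F1 and LW pigs came from different litters and pens, and slaughter day is not on the labels.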
